A study of Mus musculus with 10 samples.

Results

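The Pax family comprises 9 protein-coding genes, Pax1 to Pax9, of the 22367 protein-coding genes on chromosomes 1 to 19, X and Y in GENCODE M1. The members were chosen by name, and every peak of 6 deposited peak lists was collected within 5 kb of any annotated transcription start site (TSS) of a member, in its gene body and within 100 kb of it. In all, 44 peaks lay within 100 kb of a Pax gene, and 8 of the 9 members had at least 1. Pax8 had none in any list.

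The study asked how loss of Mtf2 (Pcl2), a Polycomb-like subunit of PRC2, affects H3K27me3 during erythroid maturation. Fetal liver (FL) cells of e14.5 embryos, WT or Mtf2-null, were sorted into CD71+Ter119-/lo cells (pro-erythroblasts) and CD71+Ter119+ cells (erythroblasts, labelled Ter119high), with 500000 cells per sample. H3K27me3 was profiled by ChIP-seq in both fractions of both genotypes and Mtf2 in both WT fractions, each against IgG. The IgG library of a WT fraction served both its H3K27me3 and its Mtf2 library, and the Mtf2-null animals carried a germline knockout, made from EUCOMM C57Bl/6 ESCs and kept on that background. There was 1 ChIP library per condition in the files, so no replicate spread, mean or test between conditions can be given. The methods state replicates of 2, and whether these were pooled is not given in the sources used here.

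Pax proteins are transcription factors with a paired domain that direct the formation of organs and cell types in the embryo, among them the eye, kidney, thyroid, spine, pancreas and muscle. Pax5 is the member of the blood system, where it commits lymphoid progenitors to the B-cell lineage. PRC2 places H3K27me3 at CpG-rich promoters of such developmental regulators in cells where they are silent, and Polycomb-like subunits help to bring PRC2 to unmethylated CpG-rich DNA.

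The sequences below, from the NCBIM37 (mm9) assembly, show what lay under the peaks the results turn on. Each run is 200 bases inside a peak, written 5′ to 3′ on the strand of the Pax gene, with each CpG dinucleotide (the letters CG) in capitals. The first 4 come from the WT erythroblast H3K27me3 peak with the highest score near a TSS, for Pax2 (chr19:44832043-44832242, + strand), Pax5 (chr4:44717052-44717251, − strand), Pax6 (chr2:105516996-105517195, + strand) and Pax9 (chr12:57791692-57791891, + strand). The Pax3 run lies under its distal WT erythroblast peak (chr1:78213554-78213753, − strand). The last run lies under the Mtf2-null erythroblast peak beyond the 3′ end of Pax2 (chr19:44937913-44938112, + strand). Each run is the stretch nearest the summit that holds no annotated UTR.
Pax2 WT erythroblast H3K27me3: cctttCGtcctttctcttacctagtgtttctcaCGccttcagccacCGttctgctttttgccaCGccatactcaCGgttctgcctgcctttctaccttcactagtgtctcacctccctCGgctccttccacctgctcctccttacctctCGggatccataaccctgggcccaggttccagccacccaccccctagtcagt
Pax5 WT erythroblast H3K27me3: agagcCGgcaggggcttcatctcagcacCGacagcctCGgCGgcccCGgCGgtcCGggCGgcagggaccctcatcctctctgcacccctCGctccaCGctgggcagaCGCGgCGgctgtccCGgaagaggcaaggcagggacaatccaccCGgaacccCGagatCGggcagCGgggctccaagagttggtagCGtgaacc
Pax6 WT erythroblast H3K27me3: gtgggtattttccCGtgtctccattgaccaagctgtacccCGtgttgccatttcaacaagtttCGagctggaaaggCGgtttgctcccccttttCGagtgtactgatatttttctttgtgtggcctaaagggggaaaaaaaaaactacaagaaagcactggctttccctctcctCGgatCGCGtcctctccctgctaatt
Pax9 WT erythroblast H3K27me3: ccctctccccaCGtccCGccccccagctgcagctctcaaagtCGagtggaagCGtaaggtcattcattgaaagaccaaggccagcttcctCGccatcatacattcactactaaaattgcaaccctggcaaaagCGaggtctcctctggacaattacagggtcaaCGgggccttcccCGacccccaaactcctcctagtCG
Pax3 distal WT erythroblast H3K27me3: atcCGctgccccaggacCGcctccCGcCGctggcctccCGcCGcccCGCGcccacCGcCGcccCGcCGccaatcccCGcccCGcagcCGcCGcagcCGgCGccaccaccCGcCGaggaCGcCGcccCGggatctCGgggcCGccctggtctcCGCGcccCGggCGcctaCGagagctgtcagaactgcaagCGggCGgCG
Pax2 distal Mtf2-null erythroblast H3K27me3: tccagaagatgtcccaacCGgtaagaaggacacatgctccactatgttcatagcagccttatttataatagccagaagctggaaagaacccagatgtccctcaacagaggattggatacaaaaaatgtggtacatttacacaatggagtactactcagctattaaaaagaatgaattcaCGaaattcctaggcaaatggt
The runs held 7 CpG at Pax2, 19 at Pax5, 8 at Pax6, 9 at Pax9 and 33 at the distal Pax3 peak. The middle of the Pax6 run lay 541 bp from the summit, and that of every other run at most 21 bp. The 1 kb around the Pax6 summit held 82 CpG at a GC content of 62.4%. The Mtf2-null run held 2 and had a GC content of 40%, against 82% in the Pax3 run.

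Each peak is given with its length, its tags (reads the peak caller counted in it, not normalized), its score (a log-scaled p of the caller, higher for a smaller p), its fold enrichment over the local IgG background and the distance of its summit from the nearest TSS of the member. The lists held 4992 peaks in WT and 1407 in Mtf2-null pro-erythroblasts, 4490 in WT and 5791 in Mtf2-null erythroblasts, and 28918 and 5309 for Mtf2 in the respective WT fractions. The ChIP libraries held 15669899 to 67169672 unique tags, and the Mtf2-null H3K27me3 library was 1.95 times as deep as WT in pro-erythroblasts and 2.23 times in erythroblasts. Peak lists hold no expression value that could check the sort or the knockout.

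The lists differed in the kind of sequence they called. Around each summit, 200 bases were read as words of 25 bases, the tag size in the file headers, and a peak was called repeated where the median word occurred more than once in the genome. Repeated sequence made up 13.6% of the WT erythroblast H3K27me3 peaks but 90.7% of the Mtf2-null erythroblast peaks. It made up 83.1% and 34.6% of the WT and Mtf2-null pro-erythroblast H3K27me3 peaks, and 99.2% and 97.9% of the Mtf2 peaks in pro-erythroblasts and erythroblasts. The names of the aligned files in the headers carry the word masked, yet how reads matching several places were handled is not given in the sources used here, and reads longer than 25 bases would match fewer places. Counts of Pax genes within 5 kb and within 100 kb are therefore given below for all peaks and for single-copy peaks alone.

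H3K27me3 lay over the Pax family in WT erythroblasts more than in any other list. Within 5 kb of a TSS, 5 of the 9 members had a WT erythroblast H3K27me3 peak, namely Pax1, Pax9, Pax2, Pax5 and Pax6, where 11.5% of all genes had one. In WT pro-erythroblasts 2 members did, Pax9 and Pax6, against 3.28% of all genes. Those 2 peaks held 17 and 16 tags at FDRs of 10.27% and 14.48%, and neither was left at a score of at least 100, at an FDR of at most 5% or with 1407 peaks per list. In Mtf2-null cells 1 member, Pax9, had a peak in pro-erythroblasts, against 1.27%, and 0 members had one in erythroblasts, against 1.63%. Mtf2 itself had no peak within 5 kb of a Pax TSS in either fraction, where 8.44% of all genes had one in pro-erythroblasts and 1.51% in erythroblasts.

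With single-copy peaks alone, the same members were counted in all 6 lists. The share of all genes with such a peak was then 2.08% in WT and 0.970% in Mtf2-null pro-erythroblasts, 11.0% in WT and 0.331% in Mtf2-null erythroblasts, and 0.282% and 0.116% for Mtf2 in pro-erythroblasts and erythroblasts. A count of 0 of 9 Pax genes is thus what a background this low gives for Mtf2, and it says little about the family.

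Gene bodies gave a like picture. In WT erythroblasts 5 members had a peak in the gene body, the same 5, against 11.5% of all genes. Pax6 was the 1 member in WT pro-erythroblasts, against 5.01%, and Pax9 the 1 member in Mtf2-null pro-erythroblasts, against 2.37%. No member had a gene-body peak in Mtf2-null erythroblasts or in either Mtf2 list, where 4.22%, 14.8% and 4.38% of all genes had one.

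Out to 100 kb the Pax family stood closer to other genes. In WT erythroblasts 7 members had an H3K27me3 peak, all but Pax8 and Pax7, against 44.0% of all genes. In WT pro-erythroblasts 3 had one, Pax9, Pax2 and Pax6, against 36.5%. The Mtf2-null lists reached 3 members in pro-erythroblasts, Pax9, Pax3 and Pax7, against 17.0%, and 1 in erythroblasts, Pax2, against 31.3%. The Mtf2 lists reached 5 members in pro-erythroblasts and 4 in erythroblasts, against 78.3% and 31.2%.

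Within 100 kb the single-copy peaks alone gave other counts in the Mtf2 and Mtf2-null lists. The Mtf2 counts were then 2 members in pro-erythroblasts, Pax9 and Pax2, against 3.76% of all genes, and 0 in erythroblasts, against 1.19%. At those 2 peaks only 58.5% and 52.3% of the words occurred once. The summits lay 44.6 kb from a Pax9 TSS and 157 kb from a Pax2 TSS, nearer to Slc25a21 and Fam178a. The Mtf2-null counts were 2 in pro-erythroblasts, Pax9 and Pax7, against 12.5%, and 0 in erythroblasts, against 5.72%. The WT H3K27me3 counts stood at 3 in pro-erythroblasts and 7 in erythroblasts, with the same members, against 13.3% and 39.8%.

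**Figure D1:**
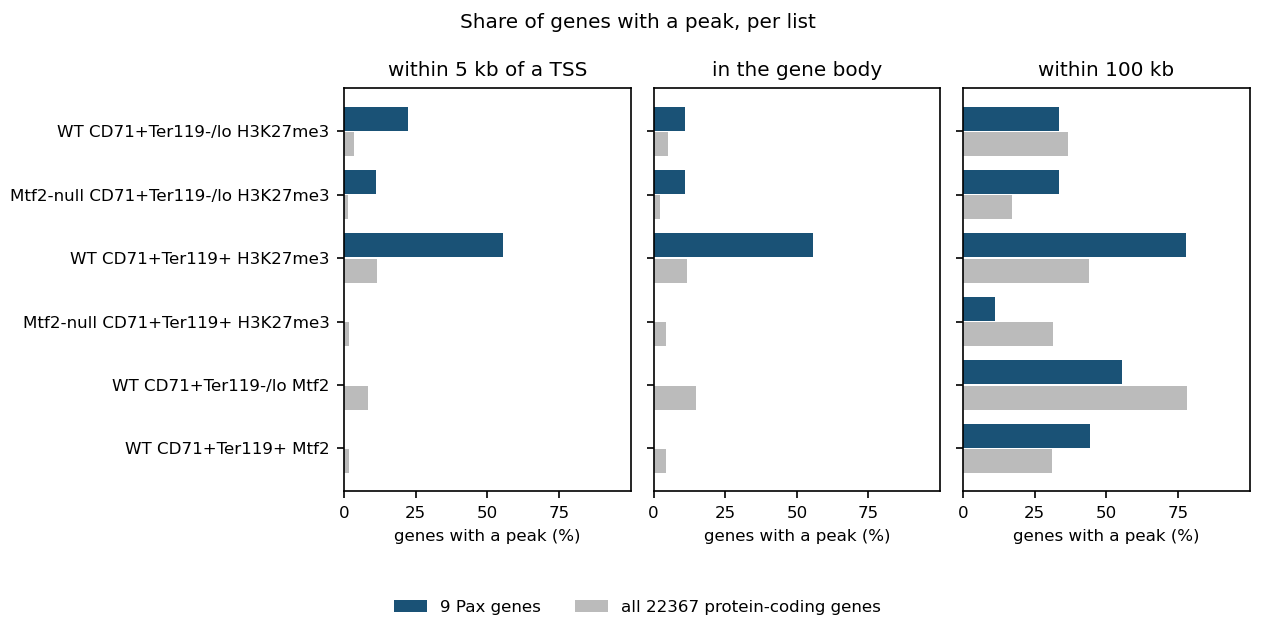
Share of the 9 Pax genes (dark bars) and of all 22367 protein-coding genes (grey bars) with a peak, in percent, for each of the 6 lists and 3 windows, with 1 library per list. The Pax bar for WT erythroblast H3K27me3 stands at 5 of 9 within 5 kb and in the gene body and at 7 of 9 within 100 kb, and the Mtf2 bars are at 0 except within 100 kb.

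**Figure D2:**
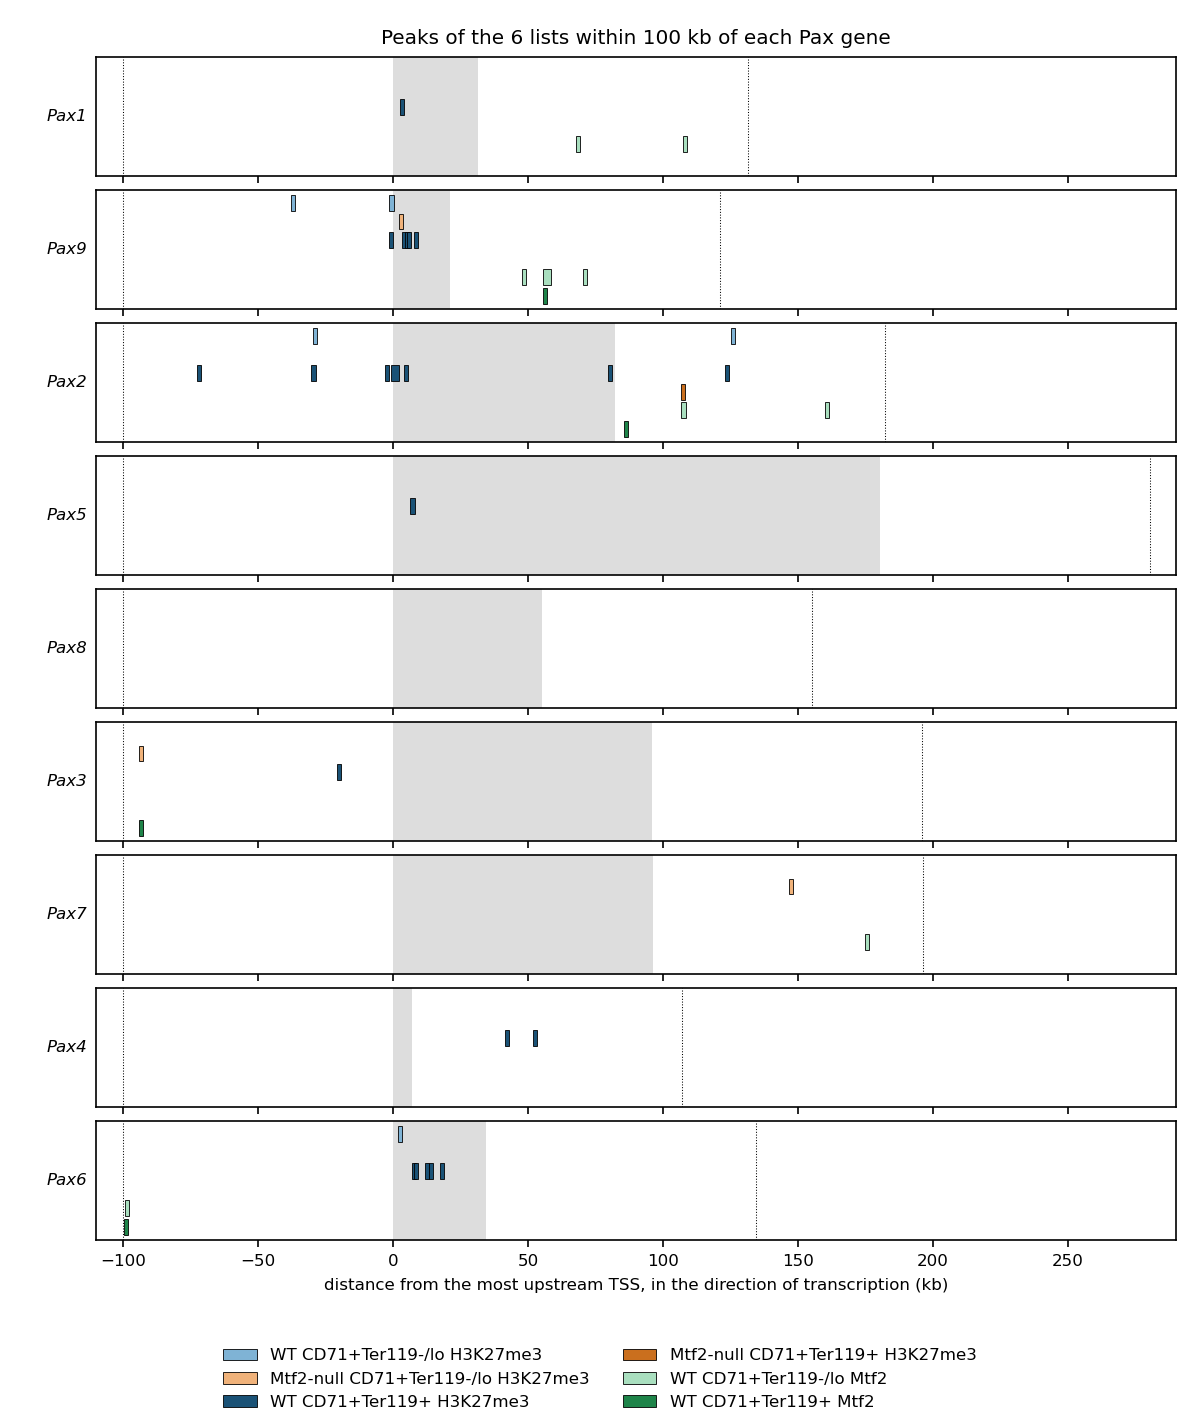
Positions of all 44 peaks along each Pax gene, in kb from its most upstream TSS in the direction of transcription; grey marks the gene body, dotted lines mark 100 kb beyond either end, colours the 6 lists, and peaks under 1.5 kb are drawn 1.5 kb wide. Dark blue WT erythroblast peaks lie near an annotated TSS of 5 genes, and those of Pax6 span 7.01 to 18.8 kb into the gene. Others are distal, and the Mtf2 peaks in green all lie outside the Pax gene bodies.

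Pax1 and Pax9 form a subgroup, and both act in the sclerotome that builds the vertebrae and in the pharyngeal pouches. Pax1 carried the weakest of the 5 marked loci. Its only H3K27me3 peak within 100 kb in any list was the WT erythroblast peak chr2:147190613-147191446, with 26 tags (95% exact Poisson interval 17.0 to 38.1, counting error only), scored 57.69 and enriched 6.74-fold over IgG, at an FDR of 24.26%. Its summit fell in a coding exon of Pax1, 289 bp downstream of the second annotated TSS. That TSS was the one with the most CpG of the gene, 63 in 1 kb, where the median TSS of all protein-coding genes had 32.

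Pax9 carried 5 separate WT erythroblast peaks, which together covered 29.8% of the 14.0 kb within 5 kb of its TSS. The highest-scoring, chr12:57791692-57792542, held 39 tags, scored 121.47 and was enriched 8.93-fold, and its summit lay 984 bp upstream of the first TSS, in an intron of the overlapping gene Gm15524. The other 4 followed downstream, with summits 287, 1374, 2248 and 4580 bp beyond the nearest TSS and 26, 46, 25 and 21 tags. None of the 5 covered the most upstream TSS, and 1 covered the pair of internal TSS.

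Within 5 kb of a TSS, Pax9 was also the member with a peak in the most H3K27me3 lists, 3 of 4. In WT pro-erythroblasts a peak of 17 tags with a score of 60.42, chr12:57791894-57792518, lay wholly inside the upstream erythroblast peak, with the summits 294 bp apart. In Mtf2-null pro-erythroblasts a peak of 29 tags with a score of 56.20, chr12:57795211-57795943, lay 1214 bp upstream of the internal TSS, and overlapped no WT peak. The caller gave it an FDR of 100%, as it did every peak of that list. Pax9 thus kept a peak within 5 kb in both genotypes of pro-erythroblasts, but not at the same place.

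Pax2, Pax5 and Pax8 form the next subgroup; Pax2 and Pax8 act in kidney and urogenital development, Pax8 also in the thyroid, and Pax5 in B cells and midbrain. Pax2 had the strongest peak of the family. In WT erythroblasts chr19:44829972-44832613 held 99 tags (95% interval 80.5 to 121) over 2642 bp, scored 221.59, was enriched 12.35-fold at an FDR of 2.12%, and stood at the 91.6 percentile of scores in its list. It covered 4 of the 5 annotated TSS, and Pax2 was the 1 member whose most upstream TSS lay under a peak. Smaller peaks of 21 and 24 tags flanked it, with summits 2421 bp upstream and 572 bp downstream of the nearest TSS.

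More of the mark lay farther from Pax2. A WT erythroblast peak of 73 tags, chr19:44800106-44802124, had its summit 29.9 kb upstream, and a WT pro-erythroblast peak of 16 tags, chr19:44801248-44801882, lay inside it. A second distal peak of 40 tags lay 71.6 kb upstream. At the 3′ end, 43 tags lay under chr19:44910266-44911537, with the summit in the annotated UTR and a GC content of 65.3%. The last WT erythroblast peak, of 24 tags, lay beyond the gene 119.9 kb from the nearest Pax2 TSS, nearer to Fam178a, at repeated sequence with a median of 17.5 copies.

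Pax5, the B-cell member, had 1 peak within 100 kb in all 6 lists together, and it was among the strongest of the family. The WT erythroblast peak chr4:44716218-44717961 held 93 tags (95% interval 75.1 to 114) over 1744 bp, scored 198.14 and was enriched 8.80-fold at an FDR of 2.32%. It lay inside the gene, 7.17 kb downstream of the most upstream TSS, with its summit in an intron 273 bp upstream of an internal TSS. It covered 2 TSS of transcripts that are annotated as non-coding, so Pax5 leaves the count when only protein-coding transcripts are used. The 1 kb around its summit had a GC content of 68.9%, and the TSS it covered had 106 CpG in 1 kb, the most of any Pax TSS, while the most upstream TSS had 41.

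Set beside the developmental members, Pax5 had a single long and dense peak. At 1744 bp it was longer than every WT erythroblast peak within 5 kb of another Pax TSS except the 2642 bp peak of Pax2. It held 1.77 tags per kb per 1000000 unique tags, the highest value among the 15 WT erythroblast peaks within 5 kb of a Pax TSS, and the Pax2 peak held 1.25. The peaks of Pax5 covered 6.22% of its TSS windows, near the 5.10% of Pax1 and below the 13.2% of Pax6, 29.0% of Pax2 and 29.8% of Pax9. These windows span 28.0 kb at Pax5 and 16.4, 33.6, 13.9 and 14.0 kb at the other 4.

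Pax8 had no peak within 100 kb in any list. The nearest WT erythroblast H3K27me3 summit was 282 kb from a Pax8 TSS. None of its 7 annotated TSS was CpG island-like. Island-like means a GC content of at least 50% with an observed to expected CpG ratio of at least 0.6 over 1 kb. The richest TSS had 29 CpG in 1 kb, against a median of 32 over all protein-coding TSS. Off the TSS, the 500 bp from 1.0 kb downstream of the most upstream TSS held 42 CpG.

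**Figure D3:**
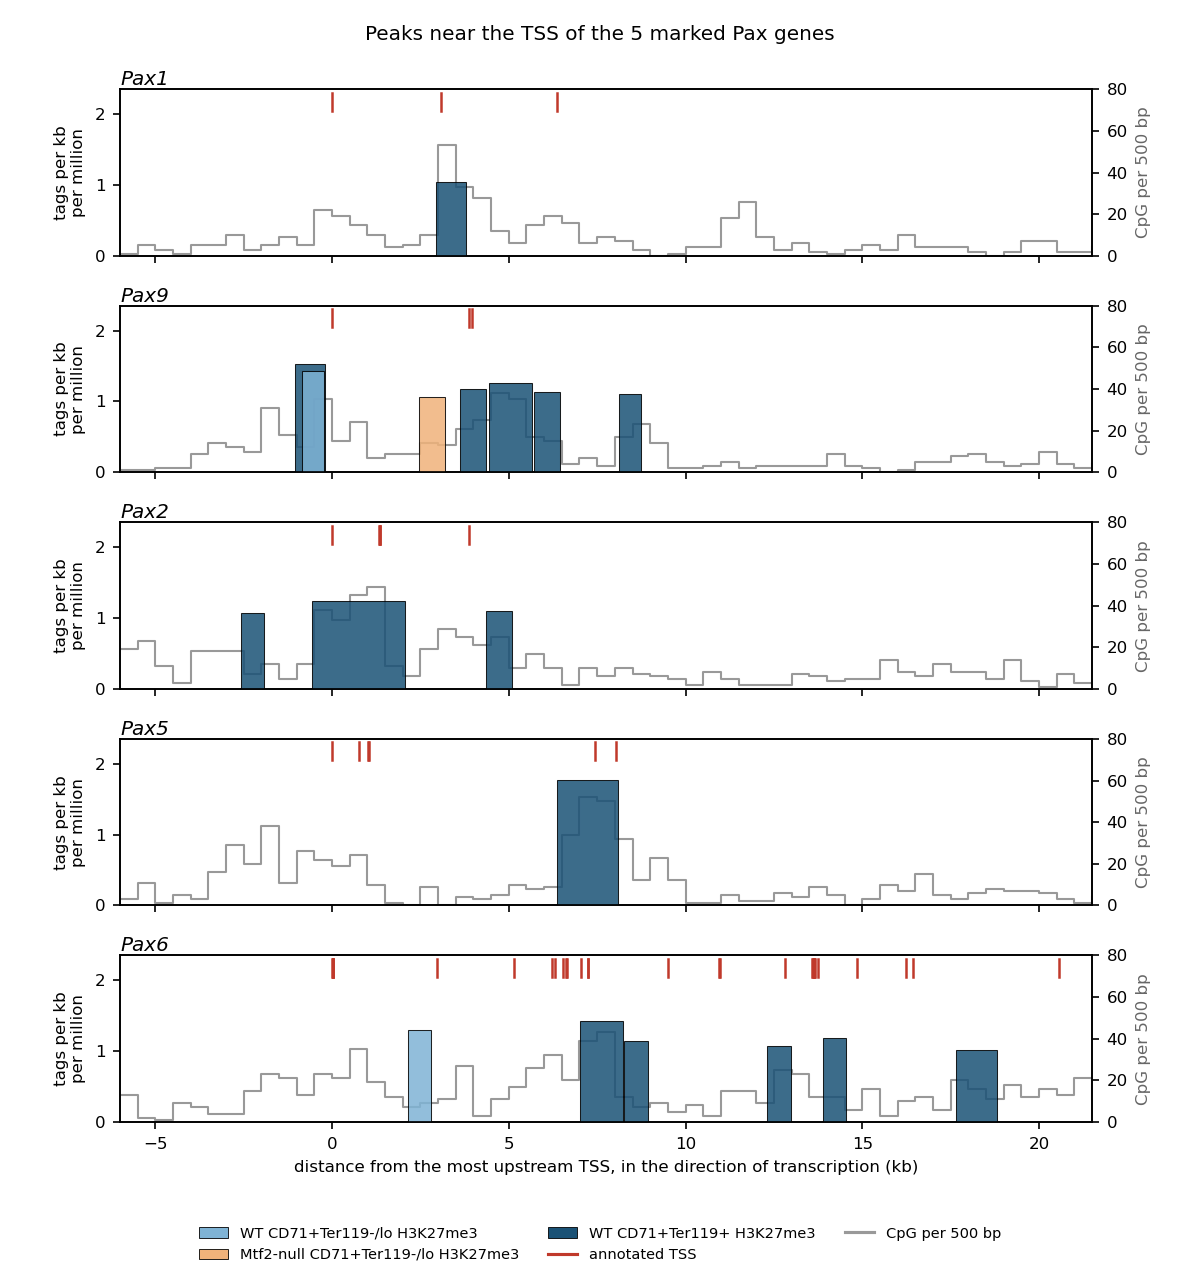
H3K27me3 peaks around the 5′ end, by distance in kb from the most upstream TSS, of the 5 marked Pax genes, with tags per kb of peak per 1000000 unique tags on the left axis (bars, 1 library each) and CpG per 500 bp on the right axis (grey line). Red ticks mark annotated TSS; Pax5 has 1 dense peak over its internal CpG-rich stretch, whereas Pax9 and Pax6 have 5 separate WT erythroblast peaks each.

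Pax3 and Pax7 form a subgroup that acts in the neural crest, dorsal neural tube and muscle progenitors. Neither had a peak within 5 kb of a TSS or in the gene body in any list. Pax3 had 1 WT erythroblast H3K27me3 peak, chr1:78213145-78214405, 19.9 kb upstream of its first TSS, which held 55 tags, scored 131.36 and was enriched 9.25-fold at an FDR of 3.26%. It was the most CpG-rich of the 44 peaks, with 131 CpG and a GC content of 73.4% in 1 kb. Its score lay above those of the strongest peaks of Pax1 and Pax9 and below those of Pax2, Pax5 and Pax6.

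The remaining peaks near Pax3 and Pax7 were distal and mostly repeated. A Mtf2-null pro-erythroblast peak of 30 tags, chr1:78286710-78287411, lay 93.3 kb upstream of Pax3 and overlapped a WT erythroblast Mtf2 peak of 19 tags by 566 bp; the words under them occurred a median of 250 and 571.5 times in the genome. Pax7 had no WT H3K27me3 peak within 100 kb. It had a Mtf2-null pro-erythroblast peak of 25 tags 147 kb from its nearest TSS, at single-copy sequence, and a pro-erythroblast Mtf2 peak of 29 tags in an intron of Tas1r2, a taste receptor gene, with a median of 5599 copies.

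Pax4 and Pax6 form the last subgroup, and both act in the endocrine pancreas, Pax6 also in the eye and forebrain. Pax6 had 5 WT erythroblast peaks within 5 kb of its 29 annotated TSS. The strongest, chr2:105516059-105517298, held 53 tags (95% interval 39.7 to 69.3), scored 149.77, was enriched 10.05-fold at an FDR of 3.07% and covered 3 internal TSS, with its summit 7.50 kb into the gene, among them the TSS with the most CpG, 73 in 1 kb. The other 4 held 22 to 35 tags and scores of 52.90 to 70.52. In WT pro-erythroblasts the Pax6 peak, chr2:105511206-105511857, held 16 tags with a score of 51.86 and lay 383 bp upstream of another TSS, overlapping none of the erythroblast peaks.

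Pax4 had 2 WT erythroblast peaks within 100 kb, of 22 and 26 tags, and both were nearer to Zfp800 than to Pax4. The closer summit was 39.7 kb from a Pax4 TSS. Pax4 had no CpG island-like TSS, and its richest TSS had 12 CpG.

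Over the family, the 15 WT erythroblast peaks within 5 kb of a TSS held 21 to 99 tags over 629 to 2642 bp, with fold enrichments of 5.61 to 12.35 (median 8.80, against 8.20 over the whole list). Of these, 5 had a score of at least 100, where 1324 of the 4490 peaks of the whole list did. A TSS was covered by 6, and 10 had their summit within 1 kb of one. No share over other peaks was computed for the TSS counts. Several members carried more than 1 peak: Pax9 and Pax6 had 5 each, where 0.0626% of all genes had at least 5, and with Pax2 they made 3 members with at least 3, where 0.608% of all genes did. Most of these peaks were weak calls: at an FDR of at most 5% Pax9 kept 2, Pax6 1 and Pax2 1, so no member had 3. The limits of 3 and 5 were set after the values were seen, and the number of windows grows with the annotated TSS, of which Pax6 had 29.

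Each of the 5 marked members had a CpG island-like TSS. The members were chosen by name but with earlier results of these data known, and 47.6% of all WT erythroblast H3K27me3 peaks were island-like. In all, 7 of the 9 members had at least 1 CpG island-like TSS, where 48.9% of all genes did. Of these 7, 5 had a WT erythroblast peak within 5 kb, where 18.8% of all genes with such a TSS had one. Neither member without such a TSS, Pax8 or Pax4, had a peak there. A gene with more annotated TSS has more chances of at least 1 that is island-like. By single TSS, 9 of 29 were island-like at Pax6, 3 of 7 at Pax5, 4 of 5 at Pax2 and 2 of 3 at Pax1. All 3 were at Pax9 and Pax3 and both at Pax7, but 0 of 7 at Pax8 and 0 of 4 at Pax4. Of all protein-coding TSS, 39.2% were. Among the 5 marked members, 4 had a peak over the TSS with the most CpG, all but Pax9, where 65.3% of all genes with a WT erythroblast peak within 5 kb did.

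CpG content did not separate the marked from the unmarked members by itself. Within 5 kb of the TSS there were 34.4 CpG per kb at Pax2, 31.6 at Pax9, 26.0 at Pax6 and 22.01 at both Pax1 and Pax5. Pax7 and Pax3, which had no peak there, had 32.3 and 29.9 CpG per kb, more than 3 of the 5 marked members. Pax4 and Pax8 had the fewest, 11.8 and 10.5.

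**Figure D4:**
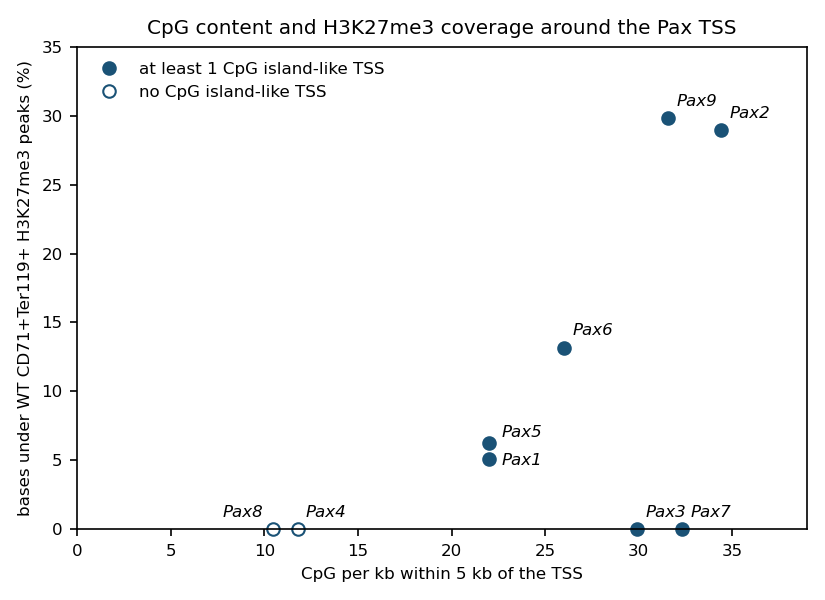
CpG per kb within 5 kb of the TSS (x axis) and the percent of those bases under WT erythroblast H3K27me3 peaks (y axis), 1 point per Pax gene and 1 library; filled points have at least 1 CpG island-like TSS. Pax9 and Pax2 lie highest at 29.8% and 29.0%, while Pax3 and Pax7 sit at 0 with 29.9 and 32.3 CpG per kb.

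Between the stages, more members were marked in WT erythroblasts than in WT pro-erythroblasts, from libraries of 30054186 and 18945784 unique tags. The pro-erythroblast count within 5 kb, 2 members, was 0 under each of the 3 stricter settings given above, while the erythroblast count was 4 under each, without Pax1. The score and FDR limits cut the lists unequally. A score of at least 100 left 216 of 4992 WT pro-erythroblast peaks and 1324 of 4490 WT erythroblast peaks. An FDR of at most 5% left 1 and 1312, so that setting says little about the stages. Of the 22 WT erythroblast peaks within 100 kb of a Pax gene, 2 overlapped a WT pro-erythroblast peak, the upstream peak of Pax9 and the one 29.9 kb upstream of Pax2. The share of all WT erythroblast peaks that did so was not computed. Repeated sequence made up 13.6% of that list and 83.1% of the WT pro-erythroblast list, so 2 of 22 says little about the Pax genes. At the tag density of the erythroblast library, the strongest Pax2 peak would hold 62.4 tags in the WT pro-erythroblast library and the Pax5 peak 58.6. The single-copy peaks called there that were no longer than these held a median of 17.0 tags in both cases. The Pax1 peak would hold 16.4 tags there, and the fewest tags of any called peak was 16. These Pax peaks were the highest-scoring of each gene in the erythroblast list, and the scaling leaves out the local IgG background. The peaks set beside them were no longer than they, and shorter peaks tend to hold fewer tags. The part of depth in the difference between the stages was not tested.

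Between the genotypes, the WT peaks near the Pax TSS had no counterpart in Mtf2-null erythroblasts. All 5 marked members had a WT and no Mtf2-null peak within 5 kb, as did 98.8% of all genes with a WT peak there, and 99.6% when only single-copy peaks were read. In pro-erythroblasts Pax6 had a WT and no Mtf2-null peak and Pax9 had both, where 94.7% of all genes with a WT peak lacked a Mtf2-null one, and 93.6% with single-copy peaks. In erythroblasts the marked Pax genes were thus near the share of all marked genes, while in pro-erythroblasts the count was 1 of 2 members.

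The Mtf2-null erythroblast library held 67169672 unique tags, against 30054186 in WT. At the WT density the strongest Pax2 peak would hold 221 tags there, and all 533 single-copy Mtf2-null erythroblast peaks no longer than it held fewer. The Pax5 peak would hold 208 tags, more than each of the 524 single-copy peaks no longer than it. For Pax1 the value was 58.1 tags, more than 264 of 265 such peaks. Read against peaks of any sequence no longer than each, 4579 of 4582 held fewer tags at Pax2, 3541 of 3541 at Pax5 and 862 of 872 at Pax1. The highest-scoring WT erythroblast peak of each gene was used, so the values start from the list where they are high. Only peaks no longer than the Pax peak were read, and shorter peaks tend to hold fewer tags. High counts of peaks with fewer tags were thus partly built in, and nothing is concluded from them. These values set 1 library against another, and the part of depth in the loss was not tested. The sequence called moved with genotype as well, at 90.7% repeated in the Mtf2-null and 13.6% in the WT erythroblast list, and its part in the loss was not tested. Less H3K27me3 per cell and fewer marked cells cannot be told apart in these bulk libraries.

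The 1 Mtf2-null erythroblast peak within 100 kb of a Pax gene lay outside the WT peaks. It was chr19:44937378-44938577, which held 68 tags, scored 72.41 and was enriched 9.15-fold, 104 kb from the nearest Pax2 TSS and nearer to Fam178a. It lay wholly inside a WT pro-erythroblast Mtf2 peak of 98 tags, with the summits 7 bp apart. The words under both summits occurred a median of 7283 times in the genome, and the 200 bases printed above from this peak hold 2 CpG.

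Mtf2 peaks near the Pax genes were all distal to them. The Mtf2 lists held 13 peaks within 100 kb of a member, 9 in pro-erythroblasts and 4 in erythroblasts, of which 0 lay within 5 kb of a Pax TSS, in a Pax gene body or over a WT erythroblast H3K27me3 peak. The share of all Mtf2 peaks that lay over a WT erythroblast H3K27me3 peak was not computed, so that 0 says little about the Pax genes. Repeated sequence lay under 7 of the 9 and 4 of the 4, where it made up 99.2% and 97.9% of the whole lists. None of the 13 was CpG island-like, where 2.84% of all pro-erythroblast and 0.433% of all erythroblast Mtf2 peaks were. Of the 22 WT erythroblast H3K27me3 peaks within 100 kb, 11 were, near the 47.6% of that whole list. The contrast is thus one between the lists and not particular to the Pax genes.

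The Mtf2 site with the most tags lay in an intron of Slc25a21, a mitochondrial carrier gene next to Pax9. In pro-erythroblasts chr12:57848487-57851165 held 134 tags with a score of 299.67, 52.4 kb from the nearest Pax9 TSS, and in erythroblasts a peak of 15 tags lay inside it. Its words occurred a median of 2103 times in the genome. A second site was shared between the stages, 98.8 kb upstream of Pax6 in an intron of Pax6os1, with 24 tags in pro-erythroblasts, 15 in erythroblasts and 193 and 243 copies.

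**Figure D5:**
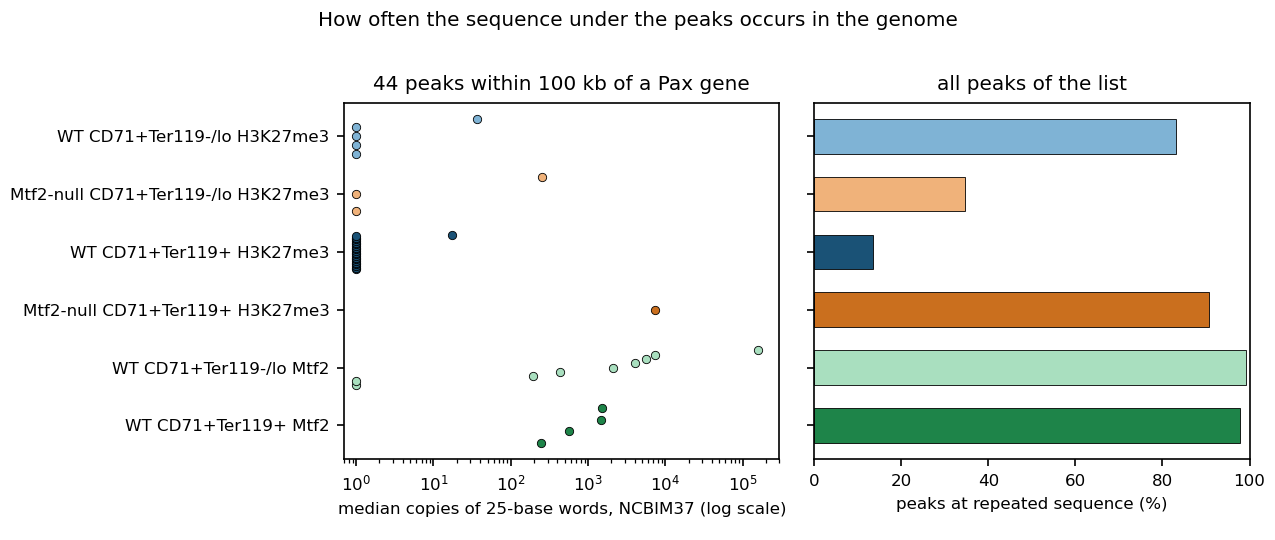
Left, the median number of copies in NCBIM37 of the 25-base words in the 200 bases around each summit (log scale), 1 point for each of the 44 peaks within 100 kb of a Pax gene, by list; right, the percent of all peaks of each list at repeated sequence. All but 1 of the 22 WT erythroblast H3K27me3 peaks sit at 1 copy, while 11 of the 13 Mtf2 peaks lie between 193 and 158662 copies.

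The B-cell genes around Pax5 did not share its mark as a group. Of 22 B-cell genes, 2 had a WT erythroblast H3K27me3 peak, near the 11.5% of all genes: Ebf1, a factor that acts with Pax5 early in B-cell commitment, with 63 tags and a score of 129.82 in its stronger peak, and Foxo1, with 115 tags and a score of 189.26. None of the 22 had one in either pro-erythroblast H3K27me3 list. The Mtf2-null erythroblast list held a peak of 48 tags near Cr2, a complement receptor, where 1.63% of all genes had one. The pro-erythroblast Mtf2 list held a peak of 34 tags near Bach2, where 8.44% of all genes had one.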

How the data were processed

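The authors sequenced 6 ChIP and 4 IgG libraries, mapped them on mm9 (Bowtie 2.2.3) and ran MACS 1.3.7 against IgG with a p cutoff of 1e-05, per the file headers and methods. The deposited tag count is the number of reads the authors' caller placed in a peak, not scaled for depth. The score, as deposited, is a log-scaled p of each peak. Fold enrichment, as deposited, divides ChIP by the local IgG level. FDR values were deposited in percent, from calls with ChIP and IgG swapped. Intervals cover counting error only.

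Genes and TSS came from GENCODE M1 and sequence from NCBIM37, the assembly of mm9. Peaks overlapped a window when they shared at least 1 base. CpG was read over 1 kb. Words of 25 bases were counted over both strands of the assembly, a step chosen after the sequences had been seen. Tables were handled in pandas 2.3.3 and numpy 2.4.6 under Python 3.11.15, intervals came from scipy 1.17.1, sequence from pysam 0.24.0, and plots from matplotlib 3.10.9. On simulated data the overlap step matched brute force for 2000 of 2000 intervals. The members, the list of B-cell genes and the windows were chosen with earlier results of these data known. All 9 members are named, and for each member and list the peak with the highest score in each window, plus list genes with a peak near a TSS. A further list of developmental genes is not reported here. No test across conditions was run, since each has 1 library. Alternatives tried were peaks scoring 100 or more, peaks with an FDR up to 5%, 1407 peaks per list, TSS of protein-coding transcripts, the summit in the window, windows of 1, 10 and 50 kb, the peak middle, 500 bases for CpG, and single-copy peaks. The Mtf2-null libraries hold no Mtf2 ChIP, so the knockout was not checked. Marker lists of erythroid cells, B cells, myeloid cells, megakaryocytes, hepatocytes and endothelium are given in the closing section.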

Additional observations from a re-analysis of the deposited data

Results flagged for a closer look

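The number of H3K27me3 peaks moved in opposite directions with genotype in the 2 fractions at 2 members. In the Pax9 gene body the Mtf2-null count minus the WT count was 1 in pro-erythroblasts and -4 in erythroblasts. Within 100 kb of Pax3 it was 1 in pro-erythroblasts and -1 in erythroblasts. Each value compares 1 library with another, and the difference between the fractions was not tested. The Mtf2-null pro-erythroblast peaks behind both had an FDR of 100%, and the one near Pax3 lay at repeated sequence with a median of 250 copies.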

How the results depend on the processing

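Of 144 recomputed values, 112 stayed within 1.5 times of the value given and 32 moved. The WT erythroblast count of 5 members within 5 kb stayed within 1.5 times under every alternative tried, as did the 5 members without a Mtf2-null peak there. A score of at least 100 left 0 members within 5 kb, in the gene body and within 100 kb in both pro-erythroblast H3K27me3 lists, and an FDR of at most 5% likewise left 0; that FDR leaves 1 of the WT and 0 of the Mtf2-null pro-erythroblast peaks in all. With 1407 peaks per list the WT pro-erythroblast counts were 0 in all 3 windows. The pro-erythroblast count of Pax genes without a Mtf2-null counterpart was then also 0 under each of these 3 settings. Within 100 kb, the Mtf2-null erythroblast count was 0 at a score of 100, with 1407 peaks and with single-copy peaks. The pro-erythroblast Mtf2 count was 2 at a score of 100, 0 with 1407 peaks, 3 within 50 kb and 2 with single-copy peaks. The erythroblast Mtf2 count was 0 at a score of 100, an FDR of 5%, 1407 peaks and single-copy peaks, and 2 within 50 kb. The Mtf2-null pro-erythroblast count was 1 within 50 kb. The median distance from a Pax TSS to the nearest WT erythroblast peak was 0.289 kb by summit and 0.584 kb by peak middle. The stricter settings cut the lists unequally. An FDR of at most 5% kept all 5791 Mtf2-null erythroblast peaks and all 28918 pro-erythroblast Mtf2 peaks. It kept 1312 of the WT erythroblast peaks and 0 of the erythroblast Mtf2 peaks. A limit of 1407 peaks kept the whole Mtf2-null pro-erythroblast list. The cause of the moved counts was not tested. No paired analysis was possible because each condition has 1 library.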

Other observations

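Markers of other cell types were read for peaks within 5 kb of a TSS. Cebpa, a myeloid factor, had a WT erythroblast H3K27me3 peak of 79 tags with a score of 234.34, as 1 of 3 matched myeloid markers. Of 5 B-cell markers, Ebf1 alone had a peak, in the same list. Itga2b, 1 of 2 megakaryocyte markers, had a WT pro-erythroblast peak of 37 tags, and Afp, 1 of 2 hepatocyte markers, a pro-erythroblast Mtf2 peak of 28 tags. The 2 endothelial markers and the 9 erythroid markers had none in any list, where 1.27% to 11.5% of all genes had one, depending on the list. The Mtf2 gene had a WT erythroblast Mtf2 peak of 43 tags with a fold enrichment of 23.37.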
